A study of Mus musculus with 3 samples.

Results

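The genes described here are 36 genes of the actin and myosin machinery of the cell cortex, the contractile layer under the plasma membrane, out of 23154 genes in the count tables. They were chosen by name: actins and their crosslinkers, non-muscle myosin II heavy and light chains, kinases and small GTPases, the ezrin, radixin and moesin linkers, proteins of filament turnover, tropomyosins, adhesion plaque proteins, Capg and Anxa2. The list also holds Ezh1, which encodes a histone methyltransferase and not a cytoskeletal protein, and its values are given with that remark. All 36 were present in the tables, 35 had enough counts to be tested, and Myl9 did not.

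The cells came from mouse blastocysts at embryonic day 3.5, taken as embryos at day 2.5 from a line with an H2B-mCherry reporter at Klf2 and cultured before they were dissociated and picked one by one. The 3 libraries, called replicates 1, 2 and 3, form 1 group of E3.5 embryo cells with 96 barcodes each. Static and shaking cultures were both used, but the labels do not say which cell came from which, nor how many embryos were pooled, and embryos positive for mCherry were used throughout, so no contrast of culture or genotype was possible. Whether the libraries stem from separate animals or cultures is not stated. Except where the fit left the library out, each p-value rests on how the difference between classes varied across these 3 libraries. That variation may be technical, and level differences between libraries that both classes share are fitted apart.

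Barcodes with at least 2000 genes with a count were kept as cells, which left 83, 64 and 78 of 96 in replicates 1 to 3, or 225 of 288. The libraries held 30573711, 27610866 and 54444536 counts, and the kept barcodes held 99.7% to 99.8% of them, with medians of 286484, 345414 and 608734 counts per cell. The 96 barcode numbers are the same in the 3 libraries. Clustering on markers of the early lineages, none of which is among the 36 genes, gave 91 cells called trophectoderm-like (TE-like, 29, 27 and 35 per replicate), 90 inner cell mass-like (ICM-like, 32, 26 and 32) and 44 with no name. The 18 TE markers summed to 5946 ± 983 CPM (counts per 1000000 counts of the class sum) in TE-like and 618 ± 42.1 in ICM-like sums (mean ± SD, n = 3 libraries). The 6 ICM markers summed to 400 ± 31.4 against 1098 ± 101, with Sox2 at 0. The 10 epiblast markers, scored together with them for the ICM-like name, differed less, at 446 ± 104.5 against 822 ± 217.5 CPM. Enox1, the highest of these 10, was at 290 against 281 CPM. The summed markers of primitive endoderm (PrE) were higher in the TE-like class, at 2120 ± 1425 against 918 ± 347 CPM. Dab2 led this sum, at 987 against 77.0 CPM. The list did not move as 1: 4 PrE markers (Col4a1, Pdgfra, Col4a2 and Lamb1) were among the 10 leading markers of the ICM-like cluster. The part of the PrE markers in the results below was not tested. Of the markers of other cells that could be carried over, 4 of 8 cumulus, 2 of 7 blood and 3 of 7 fibroblast or smooth muscle genes had any count. Their summed levels averaged at most 2.74 CPM in either class, with a highest single sum of 6.29 CPM (fibroblast or smooth muscle markers in ICM-like cells of replicate 3), and the smooth muscle actin Acta2 was at 0, while 7 oocyte markers summed to 15.6 and 32.2 CPM and 5 oviduct markers to 7.35 and 7.25 CPM in the TE-like and the ICM-like sums.

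In the blastocyst, the trophectoderm is the outer epithelium, which fills the cavity with fluid, while the inner cell mass is enclosed by it. Non-muscle myosin II, built of heavy chains, essential light chains and regulatory light chains, pulls on actin filaments and is switched on when its regulatory light chains are phosphorylated, by myosin light chain kinase among others. Ezrin, radixin and moesin tie the filaments to the membrane, beta-thymosins hold actin monomers in reserve, cofilin and profilin turn filaments over, and tropomyosins coat them.

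A larger share of the counts of TE-like cells came from this machinery than in ICM-like cells of the same library: the 36 genes together took 1.43%, 1.97% and 1.90% of all counts in the TE-like sums of replicates 1, 2 and 3 and 0.814%, 1.25% and 1.11% in the ICM-like sums. Of the 36 genes, 17 were higher in TE-like cells, 0 were lower, 18 did not pass the test and 1 was not tested. The genes that rose were both actins, Actn4, Myh9 and Myh10, the light chains Myl6, Myl12a and Myl12b, Cdc42, Msn, both beta-thymosins, the 3 tropomyosins, Capg and Anxa2. None of the kinases and neither adhesion plaque gene passed. The test was edgeR's quasi-likelihood test on counts summed per class and library, with the library as a block and Benjamini-Hochberg adjustment over all 12483 genes tested, at a threshold of 0.05. By the same rule 2.26% of all genes tested were higher and 0.721% were lower. The 36 genes were chosen with earlier results of these data known, so these shares are background and no test of the list. The median log2 fold change was 0.66 for the 35 tested genes and 0.01 for all genes tested. Without regard to pairing, all 3 TE-like sums lay above all 3 ICM-like sums for 7 of the 35 genes, against 4.82% of all genes, and below for 0, against 5.02%. Fold changes refer to these TMM-scaled fits, while levels are CPM of the class sum, not divided by gene length.

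The count of listed genes that passed changed with the fit. It was 0 without the library block (edgeR, with 6 of the genes at an unadjusted p under 0.05). It was 15 without replicate 1, 6 without replicate 2 and 1, Myh10, without replicate 3. It was 4 (Anxa2, Msn, Myh10 and Tmsb4x) when classes were cut from the marker score in place of the clusters. Calls among all genes tested changed as well, so the falls were not limited to the listed genes. They went from 372 to 0 without the block and to 57 by score. Without replicates 1, 2 and 3 they were 452, 46 and 20, with 1 residual degree of freedom among the libraries left. No p-value accounts for the classes having been drawn from the same cells.

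**Figure D1:**
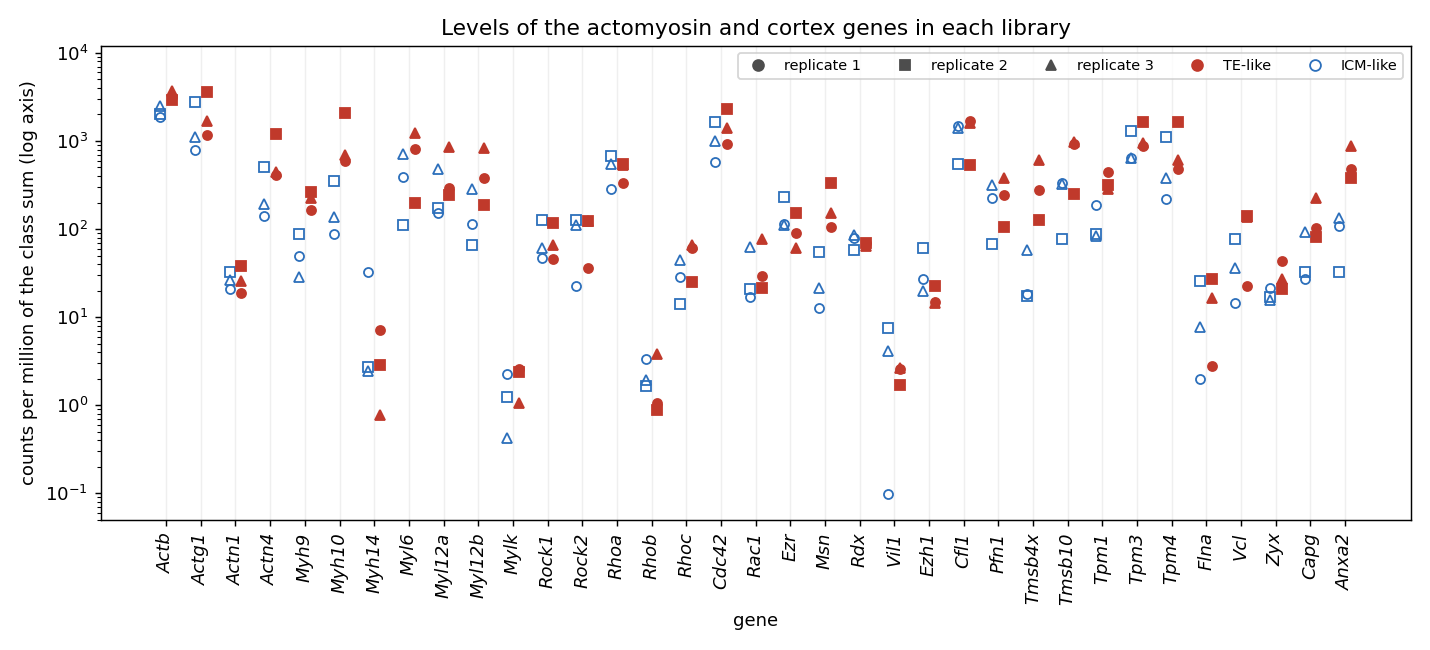
Levels of the genes in each library, in CPM of the class sum on a log axis, for TE-like (filled) and ICM-like (open) cells, with Myl9 left out as nearly without counts. Marker shapes give the replicate, and for Myh10, Msn, Tmsb4x and Anxa2 every filled point lies above every open one.

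Sequence is shown for the promoter windows of those genes that hold a CArG box, the serum response factor motif known from actin and muscle genes (CC, 6 bases of A or T, GG), because this motif links the state of actin to transcription of actin genes in textbook accounts. RefSeq windows of 250 bases before to 50 after the start (GRCm38.p6) matched 33 of the 36 genes, with 39 windows. Actb, Rock1 and Rac1 had no window and were not searched for any motif. A CArG box was found in 5 of these 39 windows, against 1.63% of 32851 windows of all genes, searched on both strands. The boxes lay 90 bases before the start in Actg1, 50 in Myl6, 227 in Vcl, 161 in Myl9 and 73 in Vil1. The Myl6 window read CCTTATATGG at that place. The other 4 are printed 5′ to 3′ on the gene's strand with the box in capitals, from chr11:120348551-120348610 (minus strand), chr14:20929148-20929207 (plus), chr2:156775278-156775337 (plus) and chr1:74409286-74409345 (plus).
Actg1: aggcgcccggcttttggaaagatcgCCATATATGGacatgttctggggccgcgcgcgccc
Vcl: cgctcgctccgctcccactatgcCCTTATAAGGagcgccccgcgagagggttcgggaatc
Myl9: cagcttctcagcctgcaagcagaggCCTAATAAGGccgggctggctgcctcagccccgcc
Vil1: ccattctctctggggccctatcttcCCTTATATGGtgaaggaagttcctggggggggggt
Of these 5 genes, Actg1 and Myl6 rose in TE-like cells, Vcl and Vil1 did not pass the test and Myl9 was not tested. Srf itself, which encodes the factor, had a log2 fold change of -0.04 ± 0.67 SE (edgeR adjusted p = 0.989). It was scarce, at 2.41, 6.22 and 6.27 CPM in TE-like against 2.25, 9.73 and 5.12 CPM in ICM-like cells, so a change could be missed.

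A second motif, GGAATG, which TEAD factors of the trophectoderm bind, was found in windows of 8 of the genes (Actn4, Flna, Myh10, Myl12a, Mylk, Pfn1, Tpm1 and Vcl), in 8 of 39 windows against 14.7% of all windows, both strands searched. It is shown for Actn4, at chr7:28962516-28962575 on the minus strand, where the match lies on the opposite strand and so reads CATTCC, 216 bases before the start.
Actn4: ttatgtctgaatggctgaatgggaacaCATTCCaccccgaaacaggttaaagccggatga
Of the 8 genes with this motif, 4 rose in TE-like cells (Actn4, Myh10, Myl12a and Tpm1), against 17 of all 36 genes. The palindrome GCCNNNGGC, the AP-2 motif, lay in 17 of 39 windows, of 16 genes, against 16.6% of all windows. A match describes the letters only.

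**Figure D2:**
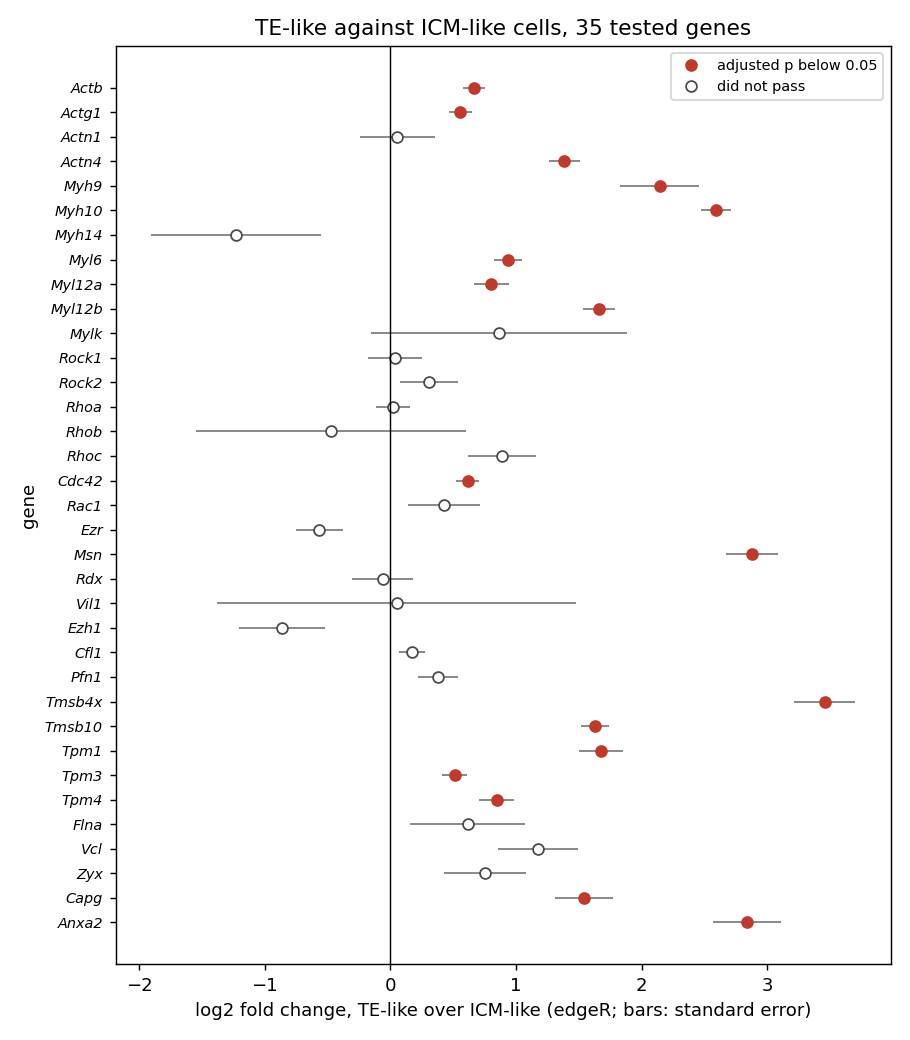
Log2 fold change of TE-like over ICM-like cells for the 35 tested genes, with bars of 1 standard error from edgeR and filled points for adjusted p below 0.05. Tmsb4x, Msn, Anxa2 and Myh10 stand at the upper end, and no filled point lies below 0.

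Both cytoplasmic actins, the building blocks of the filaments, were higher in TE-like cells. Actb stood at 3171, 2900 and 3732 CPM in TE-like cells of replicates 1, 2 and 3 and at 1872, 2035 and 2524 CPM in ICM-like cells, so every TE-like value was above every ICM-like one. The rise was 1.58-fold (log2 0.66 ± 0.09 SE, edgeR adjusted p = 0.0139). Actg1 stood at 1174, 3569 and 1679 CPM against 788, 2773 and 1123 CPM, a rise of 1.47-fold (edgeR adjusted p = 0.0311), higher within each library although the ranges overlapped because replicate 2 was high in both classes. Without replicate 3 the edgeR adjusted p was 0.217 for Actb and 0.326 for Actg1, and without replicate 2 it was 0.0995 and 0.159. With DESeq2's size factors (RLE) in place of TMM, Actg1 was at edgeR adjusted p = 0.0545.

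Among the crosslinkers, which bundle filaments, Actn4 rose and Actn1 did not. Actn4, alpha-actinin 4, was at 409, 1202 and 444 CPM in TE-like cells against 140, 509 and 191 CPM in ICM-like ones, 2.61-fold higher (log2 1.38 ± 0.12 SE, edgeR adjusted p = 0.00366). Its paralog Actn1 was at 18.6, 37.7 and 25.9 CPM against 21.1, 32.2 and 26.7 CPM, with a log2 difference of 0.05 ± 0.30. The Actn4 sum was higher in TE-like cells of each library, while the Actn1 difference changed sign between libraries. Single cells overlapped for Actn4, as in replicate 2 with 145 to 2740 CPM in TE-like and 45.8 to 2296 CPM in ICM-like cells. Filamin A, Flna, which links filaments into networks, stayed between 1.96 and 27.0 CPM in all 6 sums (log2 0.61 ± 0.46, edgeR adjusted p = 0.567). Villin, Vil1, the bundler of microvilli in gut and kidney, was near the limit of detection, at 2.61, 1.71 and 2.66 CPM against 0.0980, 7.62 and 4.13 CPM. Without replicate 3 and without replicate 2 the edgeR adjusted p of Actn4 was 0.109 and 0.0809.

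Of the myosin II heavy chains, the motor subunits, Myh10 (non-muscle myosin IIB) showed the lowest p-value of the 36 genes. It lies on chromosome 11, from 68691559 to 68816632 on the plus strand (mm10, GENCODE annotation). Its TE-like sums were 587, 2091 and 697 CPM and its ICM-like sums 89.0, 350.0 and 139 CPM, so the groups did not overlap. The rise was 6.03-fold (log2 2.59 ± 0.12 SE, edgeR adjusted p = 0.000382). In single cells the median was 574, 1979 and 730 CPM in TE-like cells against 94.0, 270 and 107 CPM in ICM-like ones. The lowest TE-like cell of each library stood at 177, 385 and 126 CPM. ICM-like cells ranged from 0 up to 604.5, 1652 and 965.4 CPM, so single cells of the classes overlapped. Myh10 remained below the threshold without replicate 2 (edgeR adjusted p = 0.0306) and without replicate 3 (0.0434). Myh9 (myosin IIA) was at 165, 263 and 226 CPM against 49.5, 87.4 and 28.8 CPM, 4.42-fold higher (log2 2.14 ± 0.31 SE, edgeR adjusted p = 0.0204), again without overlap, but was at 0.109 and 0.144 without replicates 2 and 3. Myh14 (myosin IIC) was scarce: 7.14, 2.87 and 0.772 CPM in TE-like against 32.2, 2.72 and 2.44 CPM in ICM-like cells. The high ICM-like value of replicate 1 stood alone, and the log2 difference of -1.23 ± 0.68 did not pass (edgeR adjusted p = 0.429).

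The light chains were higher in TE-like cells as well. Myl12b, a regulatory light chain, was at 384, 190 and 826 CPM against 113, 65.9 and 284 CPM, 3.16-fold higher (log2 1.66 ± 0.13 SE, edgeR adjusted p = 0.0026). Its neighbour Myl12a was at 290, 242 and 859 CPM against 151, 173 and 483 CPM, 1.75-fold higher (edgeR adjusted p = 0.0342). Both genes were higher in TE-like cells of every library, and replicate 3 was the highest in both classes. Their annotated exons overlap on the same strand of chromosome 17, so counts in the overlap could not be assigned to one of them. Myl6, the essential light chain, was at 806, 197 and 1239 CPM against 395, 112 and 708 CPM, 1.91-fold higher (edgeR adjusted p = 0.00909). Myl9, the regulatory light chain of smooth muscle, was listed at 0 to 1.74 CPM in all 6 sums and could not be tested. Without replicate 2 the edgeR adjusted p was 0.0436 for Myl12b, 0.122 for Myl12a and 0.0929 for Myl6, and without replicate 3 it was 0.127, 0.385 and 0.214. Without replicate 1 Myl12a was at 0.056.

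The enzymes that switch myosin on did not pass the test. Rock1 was at 45.2, 118 and 66.2 CPM in TE-like cells against 46.9, 126 and 60.9 CPM in ICM-like ones (log2 0.04 ± 0.21). Rock2 was at 36.1, 123 and 123 CPM against 22.4, 125 and 112 CPM (log2 0.31 ± 0.23). The edgeR adjusted p was 0.951 for Rock1 and 0.569 for Rock2, and the widest gap within a library was that of Rock2 in replicate 1. Mylk, myosin light chain kinase, was at most 2.61 CPM in any sum.

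Of the 5 small GTPases on the list, Cdc42, a regulator of cell polarity and actin assembly, rose and 4 did not pass the test. Cdc42 was at 913, 2337 and 1407 CPM against 574, 1636 and 988 CPM, 1.53-fold higher (log2 0.62 ± 0.09 SE, edgeR adjusted p = 0.021). It was above the ICM-like value in each library, with overlapping ranges, and its edgeR adjusted p was 0.168 without replicate 2 and 0.248 without replicate 3. Rhoa was at 331, 550 and 532 CPM against 283, 670 and 546 CPM (log2 0.02 ± 0.14), higher in TE-like cells of replicate 1 and lower in the others. Rhoc was at 61.6, 25.1 and 66.0 CPM against 28.8, 13.9 and 44.5 CPM, above in each library (log2 0.89 ± 0.27), but its edgeR adjusted p of 0.157 missed the threshold, which DESeq2 passed (adjusted p = 0.0437). Rac1, which drives lamellipodia, was at 29.0, 21.3 and 77.4 CPM against 16.9, 20.8 and 62.0 CPM (edgeR adjusted p = 0.518), and Rhob was below 4 CPM in every sum.

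Of the linkers of actin to the membrane, Msn rose and Ezr and Rdx did not pass the test. Moesin, Msn, lies on chromosome X from 96096042 to 96168552 on the plus strand and was at 107, 336 and 151 CPM in TE-like cells against 12.6, 54.6 and 21.6 CPM in ICM-like ones, with no overlap. The rise was 7.36-fold (log2 2.88 ± 0.21 SE, edgeR adjusted p = 0.00171; 0.0436 without replicate 2 and 0.0869 without replicate 3). Ezrin, Ezr, a linker of apical microvilli, was at 89.3, 151 and 61.1 CPM against 115, 234 and 110 CPM, lower in TE-like cells of each library, but its log2 difference of -0.56 ± 0.19 did not pass (edgeR adjusted p = 0.189). It passed when cells of unusually high total were left out (edgeR adjusted p = 0.0104), the single such case of a lower call among the 36 genes. Radixin, Rdx, was at 68.7, 69.9 and 63.8 CPM against 78.7, 57.1 and 85.9 CPM (log2 -0.06 ± 0.24).

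As a share of the summed counts of these 3 linkers, Msn was 40.3%, 60.3% and 54.7% in TE-like and 6.13%, 15.8% and 9.94% in ICM-like cells of replicates 1, 2 and 3. The mean difference was 41.2 ± 6.07 percentage points (SD, n = 3), positive in each library, and Ezr went from 58.0% in ICM-like to 27.7% in TE-like cells. The same was seen cell by cell: Msn had the highest CPM of the 3 in 14 of 29, 15 of 27 and 20 of 35 TE-like cells and in 0 of 32, 4 of 26 and 2 of 32 ICM-like cells. Ezr led in 26, 13 and 17 ICM-like cells and in 10, 6 and 9 TE-like cells. The median TE-like cell held 85.1, 203 and 138 CPM of Msn and the median ICM-like cell 1.90, 4.64 and 2.83 CPM. The summed level of the 3 genes was 265, 557 and 276 CPM in TE-like cells against 206, 346 and 218 CPM in ICM-like ones. Each TE-like sum was above the ICM-like sum of its library.

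**Figure D3:**
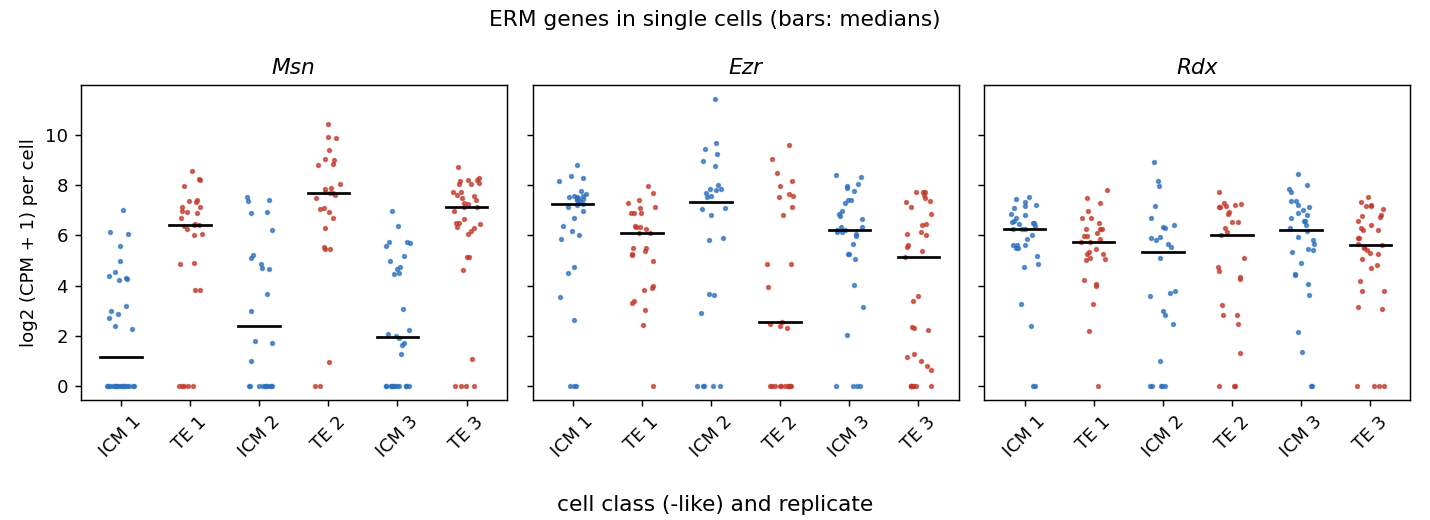
Msn, Ezr and Rdx in single cells as log2 of CPM plus 1, with a point for each cell and bars for medians, by class and replicate. The Msn medians of TE-like cells (85.1, 203 and 138 CPM) stand far above those of ICM-like cells, while Ezr medians lie lower in TE-like cells.

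Of the 4 turnover genes, both beta-thymosins, which bind actin monomers, rose, and Cfl1 and Pfn1 did not pass the test. Tmsb4x, on chromosome X from 167207093 to 167209315 on the minus strand, was at 280, 128 and 604 CPM in TE-like cells against 18.3, 17.4 and 57.2 CPM in ICM-like ones. All TE-like values exceeded all ICM-like ones, and the rise of 10.97-fold was the largest of the 35 tested genes (log2 3.46 ± 0.24 SE, edgeR adjusted p = 0.00165; 0.0222 without replicate 2 and 0.0984 without replicate 3). Tmsb10 was at 920, 250 and 970 CPM against 336, 77.4 and 322 CPM, 3.09-fold higher (log2 1.63 ± 0.11 SE, edgeR adjusted p = 0.00165; 0.0389 and 0.0984). Its replicate 2 value was low in both classes. Cofilin 1, Cfl1, which severs filaments, was at 1679, 530 and 1615 CPM against 1473, 543 and 1398 CPM (log2 0.17 ± 0.10, edgeR adjusted p = 0.454). Profilin 1, Pfn1, which feeds monomers to growing ends, was at 242, 105 and 384 CPM against 227, 67.3 and 320 CPM (log2 0.38 ± 0.16, edgeR adjusted p = 0.291). Pfn1 stood above the ICM-like value in each library and Cfl1 in replicates 1 and 3, and Pfn1 passed when cells of unusually high total were left out (edgeR adjusted p = 0.0374).

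The 3 tropomyosins were all higher in TE-like cells, by different amounts. Tpm1 was at 449, 317 and 282 CPM against 189, 86.9 and 83.4 CPM, 3.19-fold higher without overlap (log2 1.68 ± 0.17 SE, edgeR adjusted p = 0.00611). Tpm4 was at 477, 1632 and 616 CPM against 217, 1104 and 384 CPM, 1.796-fold higher (edgeR adjusted p = 0.0276). Tpm3 was at 887, 1648 and 956 CPM against 639, 1286 and 649 CPM, 1.43-fold higher and just inside the threshold (edgeR adjusted p = 0.0491). With RLE scaling Tpm3 was at 0.0762, and without replicate 1 it was at 0.0617. Without replicate 2 the edgeR adjusted p of Tpm1, Tpm4 and Tpm3 was 0.0906, 0.157 and 0.217, and without replicate 3 it was 0.155, 0.258 and 0.379.

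Anxa2, the annexin that binds membranes and actin in the presence of calcium, was at 475, 383 and 886 CPM in TE-like cells against 109, 32.8 and 135 CPM in ICM-like ones. The groups did not overlap, and the rise was 7.16-fold (log2 2.84 ± 0.27 SE, edgeR adjusted p = 0.0049; 0.0351 without replicate 2 and 0.135 without replicate 3). Capg, a calcium-dependent cap of filament ends, was at 102, 80.5 and 222 CPM against 27.2, 32.3 and 93.5 CPM, 2.91-fold higher (edgeR adjusted p = 0.0212; 0.131 and 0.248). Vinculin, Vcl, of adhesion plaques and junctions, was at 22.5, 140 and 136 CPM against 14.6, 77.7 and 36.5 CPM, higher in TE-like cells of each library. Its fold of 2.26 did not pass in the edgeR fit (adjusted p = 0.122) and did in DESeq2 (adjusted p = 0.00619), without cells of high total, in thinned cells and with keratins left out of the clustering. Zyxin, Zyx, a protein of strained filaments, was at 43.9, 20.6 and 27.1 CPM against 21.6, 16.8 and 15.7 CPM (edgeR adjusted p = 0.313). Ezh1 was at 14.9, 22.8 and 14.6 CPM against 27.0, 60.8 and 19.96 CPM, lower in TE-like cells of each library (log2 -0.86 ± 0.34), and did not pass either (edgeR adjusted p = 0.271).

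Choice between paralogs was described for 9 families as the share of 1 gene in the family's counts, with no test, since 3 pairs of sums cannot give a two-sided exact sign-flip p below 0.25. In 7 of 9 families the share moved the same way in all 3 libraries. Beside Msn, the shares of Myl12b among regulatory light chains (35.8% in ICM-like to 49.9% in TE-like cells), Tpm1 among tropomyosins (9.70% to 16.3%) and Rock2 in the sum of Rock1 and Rock2 (49.0% to 53.5%) were higher in TE-like cells. The shares of Actn1 (10.4% to 4.30%) and of Tmsb10 (87.1% to 68.1%) were lower, since Actn4 and Tmsb4x gained more. The Tmsb10 share differed by -19.0 ± 3.93 percentage points (SD, n = 3), and the Rock2 share by 4.47 ± 6.61, less than the spread between libraries. The other 2 families did not move one way: Actg1 made up 39.4% of actin counts in ICM-like and 37.7% in TE-like cells, and Myh10 made up 71.1% and 80.5% of heavy chain counts. The ICM-like share of Myh10 was low in replicate 1 (52.1%, against 79.5% and 81.6%), where Myh14 held 18.9%. In TE-like cluster 4 alone (described below) the Tmsb10 share was 1.21 points higher than in ICM-like cells, against the direction of the whole class. With counts divided by transcript length, 7 of 9 families again moved one way in all libraries.

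**Figure D4:**
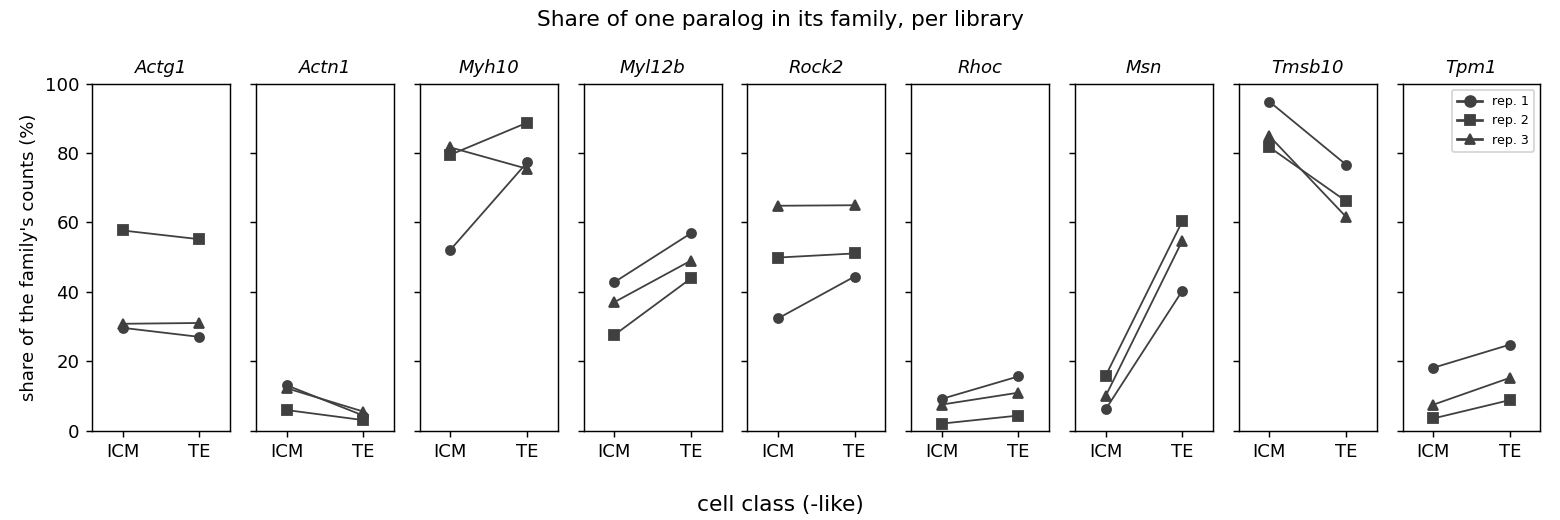
Share of one paralog in the counts of its family (%), in ICM-like and TE-like cells, with a line for each replicate. The Msn lines climb steeply in all 3 replicates, the Tmsb10 lines drop, and the Actg1 lines stay nearly level with replicate 2 apart.

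The TE-like class joined 2 clusters, and the direct comparison of them was added after the data had been seen. Cluster 2 (61 cells: 20, 16 and 25) was led by Dppa1, Tspan8 and Id2 and had Tmsb4x, one of the 36 genes, among its 10 leading genes. Cluster 4 (30 cells: 9, 11 and 10) was led by Gata3 and held Cdx2. Of its 10 leading markers 5 were of TE, 4 of PrE and 1, Nanog, of the epiblast. Its TE score exceeded that of the other cells by only 0.425 (log2). By marker score its cells were split between TE-like, no class and ICM-like. With keratins left out of the clustering most of them had no class, and the TE-like class fell to 23, 18 and 29 cells. Differences between clusters 2 and 4 therefore need not lie within trophectoderm. Of 36 genes tested between these clusters, 6 were higher in cluster 2 and 0 lower (edgeR with library block, adjusted over 11291 genes), against 0.372% and 0.416% of all genes. Tmsb4x was at 385, 178 and 835 CPM in cluster 2 and 37.5, 39.6 and 68.4 CPM in cluster 4, 7.99-fold higher (log2 2.998 ± 0.31 SE, edgeR adjusted p = 0.000457). The other 5 were Capg (3.40-fold), Msn (2.87-fold), Anxa2 (2.69-fold), Myh9 (2.29-fold) and Myh10 (2.20-fold), with edgeR adjusted p from 0.00447 (Anxa2) to 0.044 (Myh9). Of the 17 genes raised in the whole class, 15 were higher in cluster 2 than in cluster 4 in all 3 libraries. Cluster 2 made up 61 of the 91 TE-like cells from which the 17 were called. This count is therefore not independent of that call, and the share of all genes with the same pattern was not computed.

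Set against ICM-like cells one at a time, cluster 2 gave 17 of the 36 genes as higher and 0 as lower (edgeR), against 2.7% and 1.31% of 12133 genes tested. Cluster 4 gave 6 as higher (Actn4, Anxa2, Myh10, Myl12b, Tmsb10 and Tpm1) and 0 as lower, against 0.524% and 0.163% of 11641 genes. In cluster 4, Tmsb4x differed from ICM-like cells by 0.90 (log2, edgeR adjusted p = 0.468). The clusters also differed in barcode numbers: 37 of 61 cells of cluster 2 carried barcodes 1 to 32 and 8 carried barcodes 65 to 96, while 20 of 30 cells of cluster 4 carried barcodes 65 to 96 and 5 carried barcodes 1 to 32. What each set of barcodes stands for is not given in the labels, and its part in the difference between clusters was not tested. The count of 6 became 4 without replicate 1, 11 without replicate 2, 0 without replicate 3 (edgeR) and 10 with DESeq2, and 0 without the block. Within library and barcode set, TE-like against ICM-like values could be read in 8 sets with at least 5 cells per class, which are subsets of the cells already compared. Between 22 and 29 of the 35 tested genes were higher in TE-like cells of a set, against 41.4% to 54.2% of all genes tested, and Actb was not higher in 2 of the 8 sets.

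**Figure D5:**
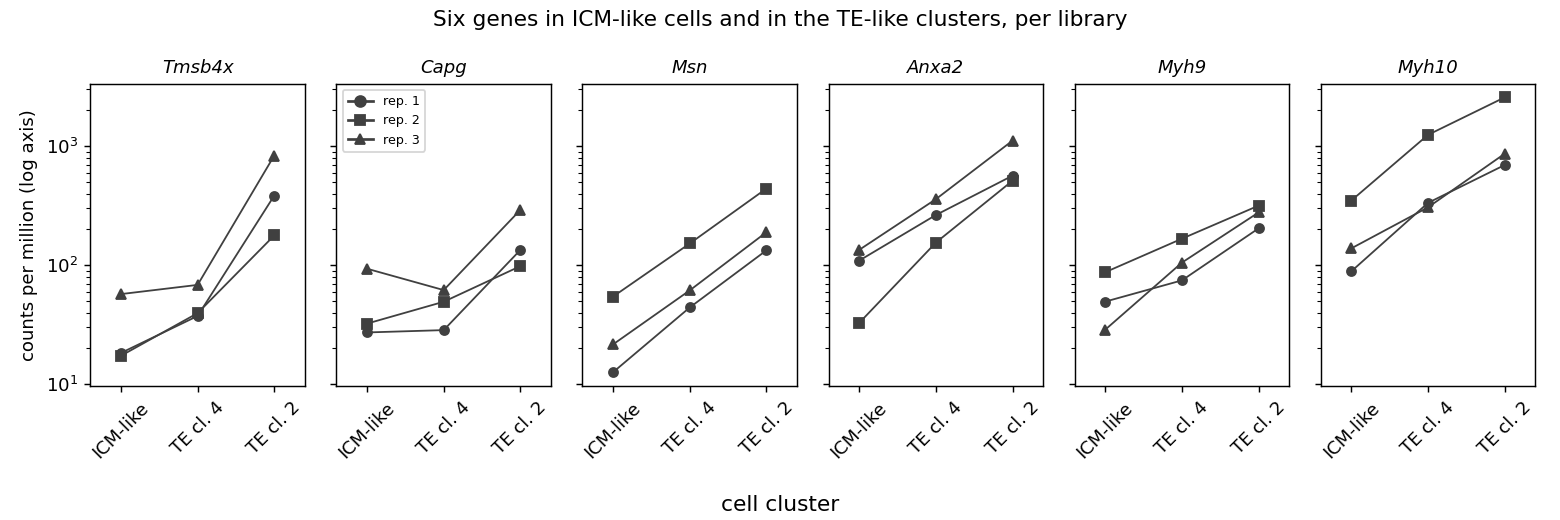
Levels of Tmsb4x, Capg, Msn, Anxa2, Myh9 and Myh10 in ICM-like cells and in TE-like clusters 4 and 2, in CPM on a log axis, with a line for each replicate. In every panel and replicate the cluster 2 value lies above the cluster 4 value, and for Tmsb4x the cluster 4 values (37.5, 39.6 and 68.4 CPM) lie nearer to ICM-like cells.

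Other genes of the actin cortex were read from a list of 112, also chosen with earlier results of these data known. Of these, 107 were in the tables and 98 were tested: 22 were higher in TE-like cells, 1 was lower and 75 did not pass, with a median log2 fold change of 0.45. Of all genes tested, 2.26% were higher and 0.721% lower, with a median of 0.01. The Arp2/3 complex, which starts branched networks, had 4 of 9 higher (Actr3, Arpc2, Arpc4 and Arpc5), turnover and capping 5 of 14, crosslinkers 4 of 15 tested, annexins and membrane linkers 4 of 12, other myosins 2 of 9 and nucleation promoters and formins 2 of 11. Focal adhesion genes had 0 of 7. Among the largest rises were caldesmon, Cald1, at 29.9, 13.1 and 20.5 CPM against 0.294, 0.175 and 0.516 CPM, with 3, 2 and 11 counts in the ICM-like sums (edgeR adjusted p = 0.00656), and Anxa3, at 21.04, 45.8 and 68.1 CPM against 0.490, 2.54 and 1.74 CPM (edgeR adjusted p = 0.00408). Slc9a3r1, the scaffold that binds ezrin, was 8.69-fold higher (edgeR adjusted p = 0.00767), while Ezr did not pass. The vesicle motor Myo5b was 6.32-fold, the severing protein Gsn 4.73-fold, Myo1e 4.06-fold, S100a11 4.56-fold and the annexin A2 partner S100a10 4.49-fold higher (edgeR adjusted p from 0.00294 to 0.0329). Rnd3, the gene that was lower, was at 27.9, 47.8 and 24.2 CPM in TE-like against 82.9, 188 and 169 CPM in ICM-like cells, 4.20-fold lower without overlap (edgeR adjusted p = 0.0162). Of the list, 2 genes passed without replicate 2 and 0 without replicate 3, where 46 and 20 of all genes passed. Without the library block 0 of the list and 0 of all genes passed.

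How the counts were made limits some genes. Replicate 2 held fewer counts of short transcripts. The 7 tested genes of the list with transcripts under 1500 bases were all lower there than in replicates 1 and 3 (median log2 -1.31, and -1.37 for all 1684 short genes). Of the 28 longer ones, 18 were higher (median log2 0.767 for the 28, and 0.355 for all longer genes). Length did not set every gene apart, since the longer Cfl1 (-1.52) and Myl12b (-1.50) were also lower. Classes were compared within each library. In 5 genes over 20% of the 31-base words in the last 300 bases recur in transcripts of other genes: Tmsb10 (86.3%), Tpm3 (62.6%), Myl6 (58.1%), Actb (30.7%) and Cfl1 (22.6%), so their counts may be short of, or shared with, near-identical copies. Exons of 15 genes, among them Actn4, Ezr, Msn, Vcl and Anxa2, overlap annotated genes of the opposite strand, and the sources used here do not give the strand setting of the counting.

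In the 44 cells with no class, the libraries differed. The 36 genes took 0.292% of counts in the 22 such cells of replicate 1, against 1.59% and 1.26% in the 11 and 11 of replicates 2 and 3. Actb stood at 229 CPM in replicate 1 and at 2549 and 3919 CPM in the others, and 20 of the 22 cells carried barcodes 33 to 64. Their median total was 240356 counts, against 62689 and 42101 in replicates 2 and 3.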

How the data were processed

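The deposited values were raw counts, whole numbers for each gene in each barcode. Per the submitters' processing notes, CASAVA 1.8, HISAT2, HTSeq and mm10 were used; the sources used here do not give the annotation, the strand setting or whether molecular identifiers were collapsed, so counts may be reads or molecules. Per the labels' protocols, 3′ ends of cDNA were captured, so counts were not divided by length. The 36 genes, the companion list and the tests were chosen with earlier results of these data known, and the class definition follows the processing made then.

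Cells with at least 2000 genes with a count were clustered on 53 markers (log2 CPM plus 1, centred within a library, 10 principal components, 15 neighbours, Leiden resolution 0.5, leidenalg 0.10.2). No doublet caller was run, since cells were picked by hand. Classes with at least 8 cells were summed per library, so the library and not the cell was the replicate. Sums were filtered (filterByExpr), scaled (TMM) and tested with edgeR 4.0.16 (R 4.3.3) with the library as a block, tested on simulated data first; DESeq2 1.42.0 was an alternative. Both classes of a library come from the same barcoded pool, which is where the pairing comes from: their deviations from the class means correlated at 0.659, 0.665 and 0.512 within replicates 1, 2 and 3. All 36 genes are named; of the companion genes, the 8 largest changes per direction that passed, with mean log2 CPM of at least 3 and the same sign in all libraries, are given with values, and genes that make up a count of 5 or fewer were named after their values were seen. Coordinates and overlaps are from GENCODE (mm10) and promoter windows from RefSeq (GRCm38.p6). One paralog family and one companion group are counted in the totals but are not reported here by name.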

Additional observations from a re-analysis of the deposited data

Results flagged for a closer look

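Signals outside the comparison of classes were seen in the barcodes and cells that it does not use. The barcodes left out for too few genes still held 697, 1583 and 3306 counts of the 36 genes in replicates 1, 2 and 3. This was 1.48%, 1.71% and 1.84% of their counts, close to the TE-like share of 1.43%, 1.97% and 1.90%. Of these counts, Actb gave 100, 323 and 1350 and Msn 25, 4 and 3, so the share alone does not place these barcodes in a class. In the 22 cells with no class of replicate 1, 4 genes stood at over 10 CPM and more than 2 times the level of both named classes; Rdx, at 103 CPM against 68.7 and 78.7 CPM, was above both by less. Myh14 was at 252.1 CPM, with 1 cell at 6384 CPM and a median cell at 16.4 CPM. Ezh1 was at 258.7 CPM, with 94.3% of its counts in 1 cell. Mylk was at 64.83 CPM, with 38.7% of its counts in 1 cell and a median of 0. Actn1 was at 84.4 CPM, with a median cell at 60.4 CPM and 23.3% of its counts in the top cell, so it was spread over more of these cells than Ezh1 was. Of these 22 cells, 20 carried barcodes 33 to 64, and the part of the barcode set in these levels was not tested. The rule was applied to replicate 1 alone, but such levels were not limited to it. In the 11 cells with no class of replicate 3, Actn1 stood at 80.2 CPM, with 74.5% of its counts in 1 cell. Mylk stood there at 34.1 CPM, with 95% in 1 cell. Myh9 (670.3 CPM) and Rock1 (182.5 CPM) also met the rule there. In replicate 2 Actn1 was at 23.8 CPM and Mylk at 0.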

How the results depend on the processing

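The 17 genes higher in TE-like cells kept their direction in all 272 values under 16 alternatives, but not their calls, and the cause of each lost call was not tested. With no replicate block the count was 0 of the 36 genes, 0 of all genes and 0 of the companion genes (750 genes and 6 of the 36 at an unadjusted p under 0.05), and leaving out a replicate gave 1 to 15 of the 36, 20 to 452 genes and 0 to 24 companion genes, with 1 residual degree of freedom among the libraries left. Classes by score gave 4, 57 and 4 (of the 36, all genes and companion genes), cluster 4 alone 6, 80 and 4, and barcodes 1 to 32 alone 7, 73 and 4 (replicates 1 and 2 only, since replicate 3 had 6 ICM-like cells there, so the barcodes and the missing library cannot be told apart), against 17, 372 and 23. DESeq2 called 1403 genes and 38 companion genes, the fit without high-total cells 785 genes, thinned cells 577 genes and clustering without keratins 847 genes. Between TE-like clusters 2 and 4 (6 of the 36 and 89 genes), DESeq2 called 10 and 506, no filter 266 genes, no block 0 and 0, and leaving out a replicate 0 to 11 and 1 to 146. In barcodes 33 to 64 and 65 to 96 a single library held both classes with 8 cells or more, so no fit was run there. The number of paralog families with 1 direction was 5 to 9 under every alternative run.

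Of the genes that did not pass, 9 changed sign of the log2 fold change under an alternative. Leaving out a replicate gave -0.15 to 0.14 for Rhoa, -1.23 to 0.0687 for Rhob, -1.38 to 1.53 for Vil1, -0.0692 to 0.1026 for Actn1, -0.0361 to 0.0742 for Rock1 and -0.27 to 0.0889 for Rdx. Rhoa was at -0.0288 with no block, -0.0106 thinned, -0.1427 by score, -0.1215 without keratins, -0.0305 at resolution 1.0 and -0.0369 in cluster 2. Vil1 was at -0.68 with no block and -0.28 in cluster 2, Rock1 at -0.0401 thinned, and by score Actn1 was at -0.40 and Mylk at -0.64. Cluster 4 gave -0.17 for Actn1, -0.17 for Rock1, 0.30 for Rhob, -0.46 for Rhoc and -0.47 for Zyx, and barcodes 1 to 32 gave -0.034 for Zyx. Depth limits Myl9, Mylk, Rhob and Vil1, at a few CPM or less in every class sum but for Vil1 in ICM-like cells of replicate 2 (7.62 CPM).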
